A study of Mus musculus with 144 samples.

Results

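The genes described here encode the machinery by which a cell shows peptides on major histocompatibility complex (MHC) class II molecules. They were 7 genes, taken by name from the 55364 genes of the deposited table: H2-Aa, H2-Ab1, H2-Eb1, Cd74, H2-DMa, H2-DMb1 and Ciita. The names were a fixed list, and no rule on measured values chose them. Earlier results of these data were known when the genes and lists here were chosen. All 7 were in the table, and 6 of the 7 had reads in at least 1 well. The seventh, Ciita, was listed at 0 in every well.

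The study sequenced RNA from single Iba1-positive cells sorted from the retina, 1 cell to a well, to follow these cells after injury of the optic nerve. All mice carried the Iba1-EGFP reporter on a C57BL/6 background and were 20 to 22 months old. There were 54 wells from eyes with an uncrushed optic nerve, 36 wells from day 2 after optic nerve crush and 54 wells from day 4 after crush, spread over 3 plates. No animal was named for any well, so each group counted as 1 sample: wells are cells and not replicates, no test across animals could be made, and every comparison below is a description of these wells. The reporter follows the gene for Iba1, which is expressed by microglia and also by other macrophages. On every plate uncrushed wells filled rows A to C, day 2 wells rows D and E, and day 4 wells rows F to H, so that plate row and condition cannot be told apart. The 18 day 4 wells of plate 1 carried a day 2 treatment tag and were grouped by their title.

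An MHC class II molecule is a pair of chains, alpha and beta, that binds peptides from the endosome and displays them to CD4+ T cells. The invariant chain, Cd74, occupies the groove while the molecule travels to the endosome, where proteases trim it and the H2-DM heterodimer exchanges the remaining fragment for a peptide. Ciita is the master coactivator of these genes and is induced by interferon gamma in macrophages. Microglia of the healthy nervous system are known for low class II levels that rise with age and inflammation. C57BL/6 mice have no functional H2-Ea gene, so the beta chain H2-Eb1 has no partner at the cell surface in this strain.

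Depth split the wells into 2 kinds. The deposited values were FPKM, fragments per kilobase of exon and per 1000000 reads, and reads per well were recovered from them. There were 88 deep wells with 50000 or more reads (60079 to 8065036 reads) and 56 shallow wells (643 to 14205 reads). Deep wells made up 39 of 54 uncrushed, 25 of 36 day 2 and 24 of 54 day 4 wells, and only 2 of the deep day 4 wells were on plate 3. The median deep well held 3161 genes in uncrushed, 3777 in day 2 and 4992 in day 4 wells. At least 3 of 13 microglia markers (Csf1r, P2ry12 and others) reached 10 reads in 31 of 39, 19 of 25 and 21 of 24 deep wells in the same order. At least 3 of 13 neutrophil markers did so in 3, 8 and 6 deep wells, and at least 3 of 14 rod markers in 4, 1 and 1. In the values below a well is said to hold a gene when it is deep and has 10 or more reads of it. Intervals are exact Clopper-Pearson 95% intervals and cover counting error only.

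The classical chain genes were rare. H2-Aa, the alpha chain of the A molecule (ENSMUSG00000036594, GRCm38 chromosome 17, 34282744 to 34287823, minus strand), was held by 3 of 88 deep wells. H2-Ab1, its beta chain (ENSMUSG00000073421, chromosome 17, 34257689 to 34269419, plus strand), was held by 11 of 88. H2-Eb1, the beta chain of the E molecule (ENSMUSG00000060586, chromosome 17, 34305867 to 34316674, plus strand), was held by 1 of 88. These genes lie side by side in the class II region of the mouse MHC.

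Class II promoters are known for a Y box, which binds NF-Y, and an X box, which binds the RFX complex, on which Ciita assembles. RefSeq (GRCm38.p6) promoter windows were matched for 4 of the 7 genes, and the 250 bases before the start of H2-Aa and H2-Eb1 are shown because these chain genes were held by the fewest wells and their windows hold class II motif letters. Capitals mark matches on either strand to GATTGG, the Y box core, and to AGNNACNG, a loose form of the X box, which do not overlap here. The H2-Aa window is chr17:34287824-34288073 on the minus strand and the H2-Eb1 window is chr17:34305617-34305866 on the plus strand.
H2-Aa: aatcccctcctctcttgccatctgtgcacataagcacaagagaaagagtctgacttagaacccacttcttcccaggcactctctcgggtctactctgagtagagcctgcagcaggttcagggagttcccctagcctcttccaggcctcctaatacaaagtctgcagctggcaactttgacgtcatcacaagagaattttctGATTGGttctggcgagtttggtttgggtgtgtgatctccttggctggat
H2-Eb1: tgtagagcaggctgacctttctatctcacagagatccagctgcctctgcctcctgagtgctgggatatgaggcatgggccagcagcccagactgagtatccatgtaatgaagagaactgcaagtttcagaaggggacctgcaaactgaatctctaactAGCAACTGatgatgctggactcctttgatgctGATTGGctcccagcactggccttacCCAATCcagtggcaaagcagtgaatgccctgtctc
The Y match of H2-Aa began 49 bases before the start. H2-Eb1 had 2 Y matches, the first 60 bases before the start, and an X match at 92 bases. H2-DMb1 also had a Y match, at 62 bases, together with 2 X matches. H2-Aa had 0 X matches, and neither window of H2-DMa held both a Y and an X match. The Y letters occurred in 14.6% and the X letters in 43.6% of 32851 promoter windows of this length, and both in 6.23%. A match is a run of letters and does not show that a factor was bound.

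H2-Aa reads came from 3 deep wells and were 0 in the other 85. An uncrushed well of plate 3 (row C, column 4) had 1432 reads, or 289 FPKM. An uncrushed well of plate 2 (row B, column 2) had 12 reads and a day 2 well of plate 3 (row D, column 2) had 88 reads, or 6.79 and 21.2 FPKM. None of the 24 deep day 4 wells had a read, which allows a share of up to 12.5%. The day 2 well held 6 neutrophil and 2 monocyte markers beside 3 microglia markers, and it had 1 read of H2-Ab1 and 0 of Cd74.

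H2-Ab1 was the chain gene found most often. It was held by 3 of 39 uncrushed wells (7.69%, 95% interval 1.62 to 20.9), 3 of 25 day 2 wells (12%, 2.55 to 31.2) and 5 of 24 day 4 wells (20.8%, 7.13 to 42.2). The intervals overlap widely. The uncrushed wells that held it had 114, 278 and 821 FPKM, and the day 2 wells had 33.8, 88.5 and 478 FPKM. The day 4 wells had 3.43, 17.6, 23.02, 53.2 and 161 FPKM. More day 4 wells held the gene, but their median of 23.02 FPKM was below the lowest uncrushed and the lowest day 2 value among the wells that held it.

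H2-Eb1 was held by the same uncrushed well of plate 3 alone, with 1392 reads, or 549 FPKM. In the other 87 deep wells its highest value was 1.25 reads. H2-Ea had 0 reads in every deep well.

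Cd74, the invariant chain (ENSMUSG00000024610, chromosome 18, 60803848 to 60812652, plus strand), was held by more wells than any chain gene. It was held by 5 of 39 uncrushed wells (12.8%, 4.30 to 27.4), 5 of 25 day 2 wells (20%, 6.83 to 40.7) and 8 of 24 day 4 wells (33.3%, 15.6 to 55.3). The 5 uncrushed wells had 56.5, 117, 646, 1085 and 3326 FPKM. The 5 day 2 wells had 15.1, 56.3, 73.1, 207 and 441 FPKM. The 8 day 4 wells ranged from 14.9 to 521 FPKM with a median of 113. The wells of the 3 groups overlap, and the 3 highest values were all uncrushed. By plate, the day 4 wells with Cd74 were 2 of 12, 6 of 10 and 0 of 2, so most of them came from plate 2.

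H2-DMa and H2-DMb1 encode the chains of the peptide exchange factor H2-DM. H2-DMa (ENSMUSG00000037649, chromosome 17, 34119541 to 34139101, plus strand) was the most widespread of the 7 genes, held by 33 of 88 deep wells. It was all or little in single wells: 29 deep wells had 0 reads, 26 had 8 reads or fewer, and the other 33 had 62 or more. It was held by 13 of 39 uncrushed wells (33.3%, 19.1 to 50.2), 7 of 25 day 2 wells (28%, 12.1 to 49.4) and 13 of 24 day 4 wells (54.2%, 32.8 to 74.4). Among wells that held it, FPKM ranged from 81.6 to 1032 with a median of 281 in uncrushed, from 96.2 to 295 with a median of 127 in day 2, and from 23.6 to 569 with a median of 122 in day 4. The groups overlap, and the highest value was again uncrushed.

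H2-DMb1 (ENSMUSG00000079547, chromosome 17, 34153072 to 34160230, plus strand) was held by 6 of 39 uncrushed wells (15.4%, 5.86 to 30.5), 2 of 25 day 2 wells (8%, 0.984 to 26.03) and 9 of 24 day 4 wells (37.5%, 18.8 to 59.4). The 6 uncrushed wells ranged from 41.2 to 1103 FPKM with a median of 347. Both day 2 wells were close together, at 96.5 and 96.8 FPKM, and the 9 day 4 wells ranged from 32.5 to 424 with a median of 125. Its neighbour H2-DMb2 is a near-identical copy, was held by 6, 2 and 8 wells of the 3 groups and shared 5, 2 and 8 of them with H2-DMb1. Reads of the copies cannot be fully separated, so values of H2-DMb1 are uncertain.

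Ciita (ENSMUSG00000022504, chromosome 16, 10480059 to 10528418, plus strand) had 0 reads in all 144 wells. As 3 divided by the number of wells, an approximate limit, 0 of 88 deep wells allows a share of up to 3.41%. By the same rule 0 of 144 wells allows up to 2.08%. The exact intervals by group reached 9.03% in uncrushed, 13.7% in day 2 and 14.2% in day 4 deep wells. Its transcript was therefore not detected in the wells that held class II genes either. This limits wells with a read and does not show that cells lacked the transcript.

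Mean levels put H2-DMa first in each group. On the per-length scale of mean log2(FPKM + 1) over deep wells, H2-DMa stood at 3.13 ± 3.73 in uncrushed, 2.42 ± 3.18 in day 2 and 4.00 ± 3.34 in day 4 wells (SD over 39, 25 and 24 wells). H2-DMb1 stood at 1.598 ± 3.03, 0.72 ± 1.84 and 2.75 ± 3.42, and Cd74 at 1.46 ± 3.05, 1.56 ± 2.72 and 2.40 ± 3.36. H2-Ab1 followed at 0.87 ± 2.34, 0.89 ± 2.32 and 1.03 ± 2.14. H2-Aa and H2-Eb1 were under 0.3 in every group and Ciita was at 0. Within a group every step between neighbours in this order was no larger than the larger of their SDs over wells. The order of neighbours is therefore within the spread between wells, and in day 2 Cd74 and H2-Ab1 stood above H2-DMb1. The ends of the order lay further apart: at day 4 the mean of H2-DMa exceeded its SD, and H2-Aa was at 0.

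**Figure D1:**
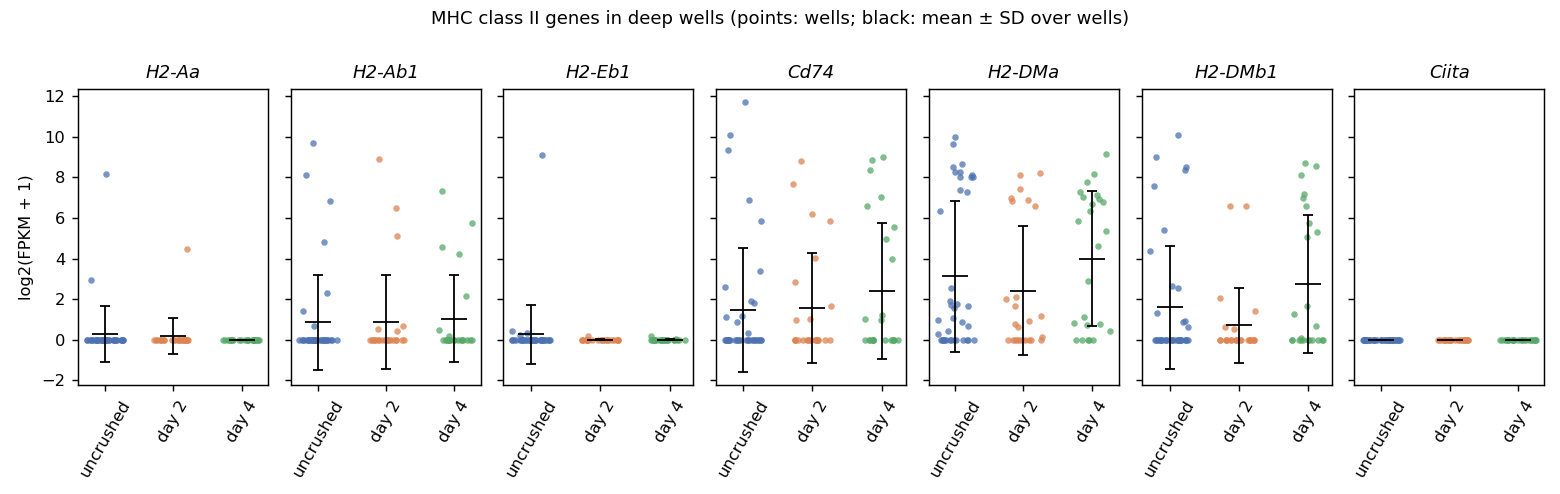
Level of each class II gene in every deep well of the 3 groups on a log2(FPKM + 1) axis; points are wells and black bars the mean ± 1 SD over wells. Most wells lie at 0, H2-DMa has the most wells above 0 and the highest mean in each group, Ciita has none, and 1 uncrushed well stands far above the rest for H2-Aa and H2-Eb1.

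The well of plate 3 at row C, column 4 stood apart from all others. It was the 1 deep well that held H2-Aa, H2-Ab1, H2-Eb1 and Cd74 together. Cd74 had 7276 reads in it (3326 FPKM) and was the gene of rank 15 in the well. The summed reads of these 4 genes made up 0.986% of its reads, or 9860 reads per 1000000 reads (RPM), against 1822 in the next highest deep well and a median of 0 over the others. It contributed 91.2% of the summed RPM of H2-Aa over all deep wells, 99.8% of those of H2-Eb1, 43.3% of those of Cd74 and 38.97% of those of H2-Ab1. Of H2-DMa and H2-DMb1 it contributed 1.02% and 4.41%, so the H2-DM genes did not share this concentration. Values that rest on it are given with and without it below.

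The same well held all 13 microglia markers. It held 2 of 12 markers of border macrophages, Ms4a7 with 409 reads and Pf4 with 40, while Mrc1, Cd163 and Lyve1 were at 0. Ms4a7 had at most 7 reads in every other deep well (both genes were singled out after their values were seen). In all, 50 genes had 100 or more reads in this well and under 10 in every other deep well, Ms4a7 among them. The same count was not made for other deep wells, so it does not show that this number is unusual. None of the 9 monocyte markers reached 10 reads. It held 1 of 12 dendritic cell markers (Wdfy4), 1 of 9 B cell markers (Ighm, with Cd79a and Igkc at 0), 1 of 13 neutrophil markers and 2 of 14 rod markers. It held 3 of 6 Mueller glia markers: Apoe with 9192 reads, Slc1a3 with 326 and Glul with 163. The well had 7711 genes, where the next uncrushed deep well had 5684. H2-Ob, which together with H2-Oa restrains H2-DM, had 618 reads and H2-Oa had 0. Whether the well held 1 cell was not tested.

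Removing this well changed what the uncrushed group looked like. With it, mean FPKM of Cd74 over uncrushed deep wells was 135, above 67.8 in day 4 wells. Without it, the mean over the other 38 wells was 50.7, below day 4. Uncrushed H2-Ab1 went from a mean of 31.98 to 11.2 FPKM, beside 24.1 in day 2 and 10.8 in day 4 wells. The day 2 and day 4 means also leaned on 1 well each, at 478 and 161 FPKM, and those wells were kept. H2-Aa went from 7.59 to 0.179 FPKM and H2-Eb1 from 14.1 to 0.0208. H2-DMa barely moved, from 121 to 122.

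Few deep wells held more than 1 chain gene. Of the 3 wells with H2-Aa, 2 held H2-Ab1, and the 1 well with H2-Eb1 held both. H2-Ab1 was held together with its partner H2-Aa in 2 of the 11 wells that held H2-Ab1, both uncrushed. The other 9 wells held H2-Ab1 without H2-Aa. The highest of these, a day 2 well of plate 1 (row D, column 3), had 3196 reads of H2-Ab1 (478 FPKM), 0 of H2-Aa and 66 of Cd74. Of the 4 genes H2-Aa, H2-Ab1, H2-Eb1 and Cd74, deep wells held all 4 once, exactly 3 never (0 wells), 2 in 8 wells, 1 in 13 wells and none in 66 wells. At least 1 of the 4 was held by 6 of 39 uncrushed (15.4%), 7 of 25 day 2 (28%) and 9 of 24 day 4 wells (37.5%). The gap between groups depended on the threshold: at 100 RPM or more the shares were 15.4%, 16% and 20.8%, and at FPKM 1 or more 33.3%, 40% and 45.8%. Without plate 2 they were 16.7%, 36.8% and 21.4%. Of the 8 wells with 2 of them, 7 held H2-Ab1 and Cd74, and these were 1 uncrushed, 2 day 2 and 4 day 4 wells.

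**Figure D2:**
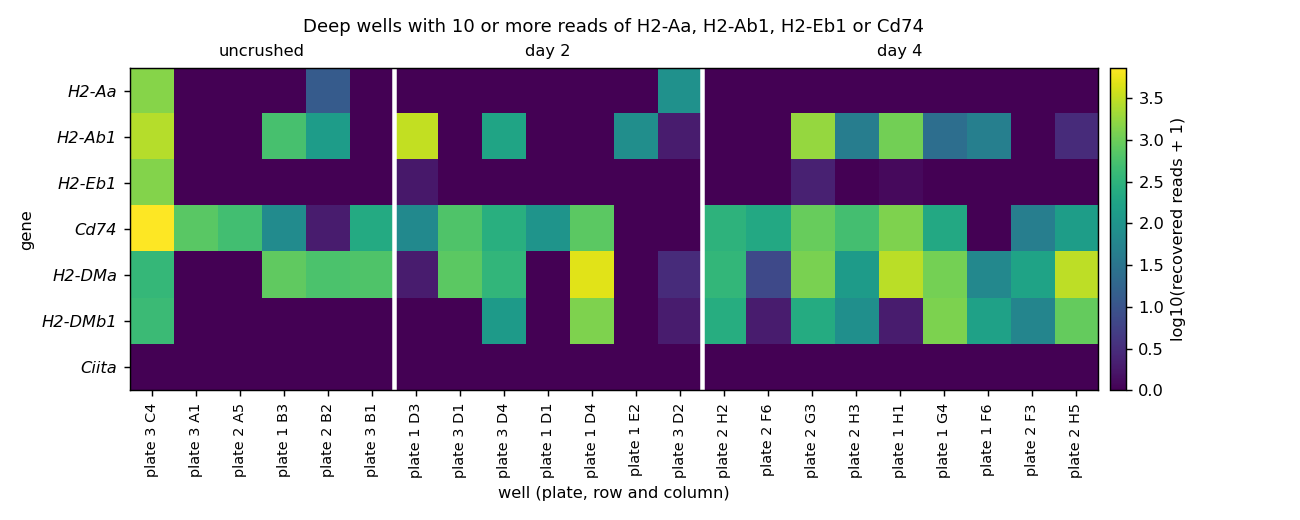
Recovered reads, as log10(reads + 1) in colour, of the 7 class II genes (rows) in the 22 deep wells that held H2-Aa, H2-Ab1, H2-Eb1 or Cd74 (columns), ordered within each group by the summed level of these 4 genes. The first uncrushed well is filled for all 4, Cd74 fills most other columns, and the Ciita row is empty.

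Cd74 was found with and without a chain gene in similar numbers of wells, 8 and 10. Wells that held H2-Ab1 held Cd74 in 8 of 11 cases (72.7%), and wells without H2-Ab1 in 10 of 77 (12.99%), a gap of 59.7 percentage points. A gap of 40 points or more in this comparison was shown by 23.4% of 5271 genes, and 98.5% of genes had a smaller gap than Cd74. H2-DMa also passed 40 points here, at 50.6, as did H2-DMb1 at 40.3. H2-Aa and H2-Eb1, held by 3 wells and 1 well, stood at 16.9 and 9.09 points, below the 28.6 of the median gene. Wells with H2-Ab1 had a median of 6609 genes and wells without it 3247, so many genes were held more often in them.

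The H2-DM genes shared the most wells of any pair, 15. Wells that held H2-DMb1 held H2-DMa in 15 of 17 cases (88.2%), and wells without H2-DMb1 in 18 of 71 (25.4%), a gap of 62.9 points. A gap of 40 points or more was shown by 20.7% of 5271 genes in this comparison, and 99.7% of genes had a smaller gap. By group, H2-DMb1 wells with H2-DMa were 5 of 6 in uncrushed, 2 of 2 in day 2 and 8 of 9 in day 4. In the other direction H2-DMa often stood alone, since 18 of its 33 wells did not hold H2-DMb1. Wells that held H2-DMa held H2-DMb1 in 15 of 33 cases (45.5%), against 2 of 55 (3.64%). That gap was 41.8 points, and 89.96% of genes had a smaller gap, so this direction stood out less. Wells with H2-DMb1 had a median of 6609 genes against 3239 in wells without it.

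H2-DM genes were often found in wells with no chain gene and no Cd74. An H2-DM gene was held without any of H2-Aa, H2-Ab1, H2-Eb1 and Cd74 by 20 deep wells. Wells that held Cd74 held H2-DMa in 13 of 18 cases (72.2%), against 20 of 70 (28.6%), a gap of 43.7 points where 8.78% of genes reached 40. They held H2-Ab1 in 8 of 18 cases (44.4%), against 3 of 70 (4.29%). That gap was 40.2 points, and 91.7% of genes had a smaller gap. In all, 42 of 88 deep wells held at least 1 of the 7 genes, 16 of 39 uncrushed, 11 of 25 day 2 and 15 of 24 day 4 wells.

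**Figure D3:**
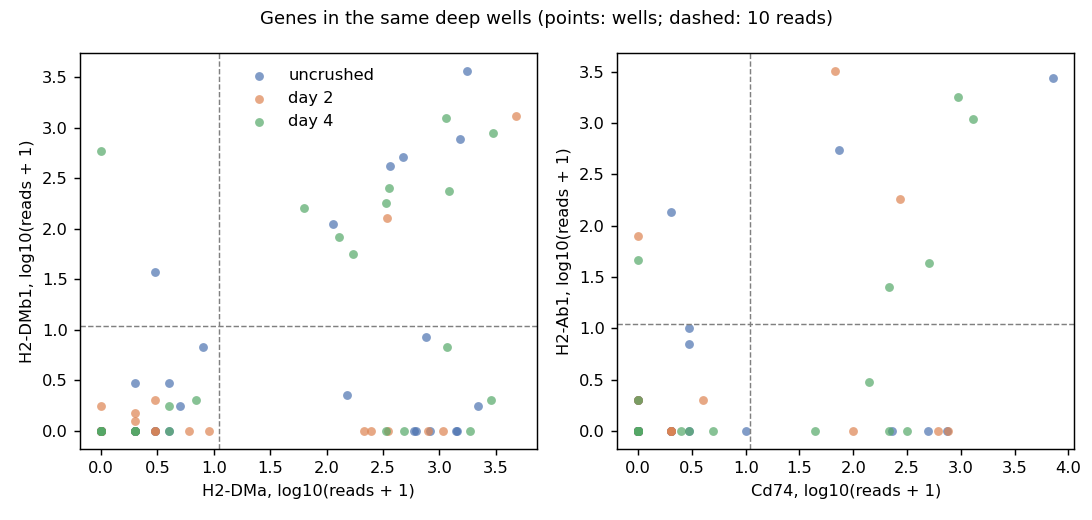
Recovered reads of H2-DMb1 against H2-DMa (left) and of H2-Ab1 against Cd74 (right) in each deep well, as log10(reads + 1) on both axes; points are wells coloured by group and dashed lines mark 10 reads. The upper right corner holds 15 wells on the left and 8 on the right, and a row of wells along the bottom has H2-DMa or Cd74 alone.

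Wells that held a chain gene or Cd74 carried microglia markers. All 22 held at least 3 microglia markers, with a median of 11 of 13. Their summed microglia level ran from 99.4 to 40680 RPM (median 21880), so at least 1 of them had little microglia signal. None held 3 or more markers of monocytes, dendritic cells, B cells or border macrophages, where those lists had 9, 12, 9 and 12 genes. Of the 22, 2 held 3 or more of 6 Mueller glia markers and 1 held 3 or more rod markers. Summed marker levels in these wells ran from 0 to 364 RPM for border macrophages (median 5.67), 0 to 414 for dendritic cells (0.73), 0 to 13390 for monocytes (3.04), 0 to 3527 for B cells (378), 0 to 7430 for Mueller glia (133) and 0 to 731.5 for rods (3.03). Neutrophil markers were at 3 or more in 0 of 6 uncrushed, 3 of 7 day 2 and 3 of 9 day 4 wells that held a chain gene or Cd74. In these 22 wells the neutrophil markers summed to between 0 and 62950 RPM, with a median of 78.85. Over all deep wells the summed level of the 13 neutrophil markers had a median of 11.6 RPM in uncrushed (range 0 to 111900), 51.8 in day 2 (0 to 96600) and 167 in day 4 wells (0 to 73310). Their part in the class II values was not tested. These wells also had more genes than wells without: the medians were 4729 against 2935 in uncrushed, 5125 against 3227 in day 2 and 8553 against 4182 in day 4.

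Between day 4 and uncrushed wells, H2-DMb1, Cd74 and H2-DMa were higher at day 4 and H2-Aa and H2-Eb1 lower. The differences in mean log2(FPKM + 1) over deep wells were 1.15 for H2-DMb1, 0.94 for Cd74, 0.86 for H2-DMa, 0.16 for H2-Ab1, -0.29 for H2-Aa and -0.25 for H2-Eb1. With a difference of at least 1 as the call, 1 of the 7 genes was called higher, where 26.5% of 11089 genes were called higher and 0.712% lower. Over the genes that passed the filter below, 82.3% were above 0, so most genes were higher in day 4 wells. The median of the 7 was 0.16, beside a median of 0.12 over all genes without a filter and 0.50 over filtered genes. Without the well at row C, column 4 of plate 3, H2-Aa differed by -0.08, H2-Eb1 by -0.02 and H2-Ab1 by 0.39, so the lower values of H2-Aa and H2-Eb1 rested mainly on that well. Without it 2 of the 7 were called higher, H2-DMb1 at 1.31 and Cd74 at 1.21. The well was singled out after its values were seen and lay above the uncrushed mean of both genes. Leaving it out therefore had to raise both differences. No day 4 well was left out to match, and the share over all genes was not computed without it. A filter of FPKM 1 or more in at least 5% of wells was passed by 4 of the 7 (H2-Ab1, Cd74, H2-DMa and H2-DMb1).

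The plates did not give 1 answer. Within plates 1, 2 and 3 the day 4 minus uncrushed difference was 0.49, 3.24 and -2.49 for Cd74, 0.43, 1.79 and -2.20 for H2-DMa, and 1.72, 1.53 and -1.49 for H2-DMb1. The plate 3 values rest on 2 day 4 wells. Without plate 2 the difference of Cd74 was -0.69, that of H2-DMa 0.13 and that of H2-DMb1 0.79, so the direction for Cd74 rested on plate 2. Without the 18 day 4 wells with the conflicting tag, which are those of plate 1, the differences were 2.24, 1.67 and 1.86. Without wells with neutrophil or rod markers they were 0.51, 1.12 and 0.74.

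Shares of wells showed the same 4 genes higher at day 4. The day 4 share exceeded the uncrushed share by 22.1 points for H2-DMb1, 20.8 for H2-DMa, 20.5 for Cd74 and 13.1 for H2-Ab1. A rise of 20 points or more was shown by 3 of the 7 and by 34.9% of 8405 genes, whose median was 15.7 points. With every deep well thinned to 50000 reads, and 1 read as detection, H2-DMa was in 41.03% of uncrushed, 40% of day 2 and 62.5% of day 4 wells. Thinned Cd74 was in 12.8%, 20% and 29.2%, and thinned H2-DMb1 in 20.5%, 8% and 37.5%. Thinned H2-Ab1 was in 10.3%, 16% and 16.7%, and at 100 RPM or more H2-Ab1 was held by 7.69%, 8% and 8.33%.

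**Figure D4:**
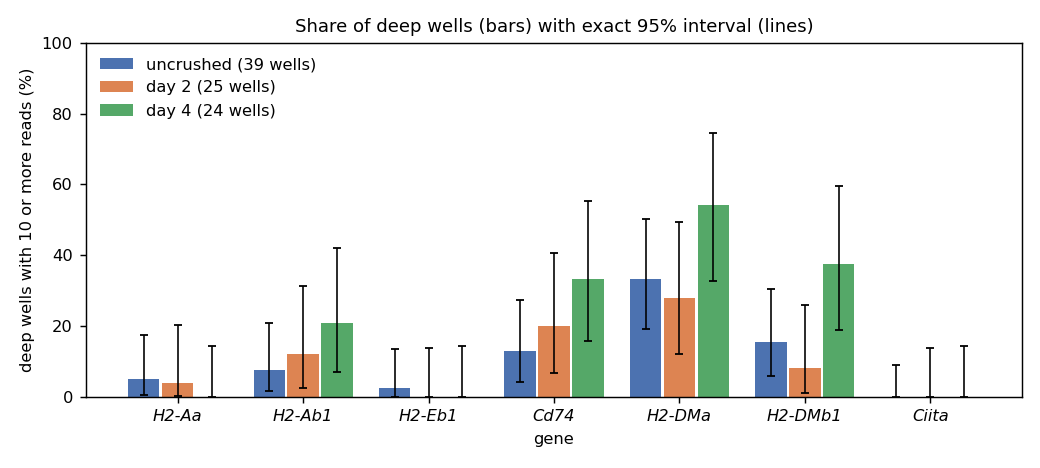
Share of deep wells that hold each class II gene at 10 or more reads, by group, with exact 95% intervals for counting error. Day 4 has the highest share for H2-Ab1, Cd74, H2-DMa and H2-DMb1, and the intervals of the 3 groups overlap for each gene.

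Day 2 wells were not between uncrushed and day 4 wells for the H2-DM genes. The day 2 minus uncrushed difference was -0.88 for H2-DMb1, -0.71 for H2-DMa, 0.10 for Cd74, 0.02 for H2-Ab1, -0.11 for H2-Aa and -0.25 for H2-Eb1. Of the 7 genes 0 were called in either direction, where 13.8% of 9716 genes were called higher and 1.06% lower. The median of the 7 was -0.11, beside 0.04 over all genes without a filter and 0.26 over filtered genes. Without the well at row C, column 4 of plate 3, H2-Aa differed by 0.10, H2-Eb1 by -0.02, H2-Ab1 by 0.25 and Cd74 by 0.37. A rise of 20 points or more in the share of wells was shown by 0 of the 7 and by 11.8% of 6904 genes. For H2-DMa the sign turned with the wells used: the difference was 0.62 without wells with neutrophil or rod markers and 0.44 without plate 2, where none of the 6 deep day 2 wells held it. Without plate 3 it was -1.71. For H2-DMb1 plates 1, 2 and 3 gave 0.28, -2.30 and -0.33, and the difference without plate 2 was -0.12. None of the 6 deep day 2 wells of plate 2 held H2-DMb1, so its lower day 2 level rested mainly on that plate. Without wells with neutrophil or rod markers its difference was -0.61.

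Day 4 wells exceeded day 2 wells by 2.03 for H2-DMb1, 1.58 for H2-DMa, 0.84 for Cd74 and 0.14 for H2-Ab1. This comparison and the one above share the day 2 wells. Of the 7 genes 2 were called higher, where 12% of 12615 genes were called higher and 1.23% lower. In shares, H2-DMb1 rose by 29.5 points and H2-DMa by 26.2, and 14.5% of 10155 genes rose by 20 or more. Within plates the differences were 0.71, 5.40 and -3.57 for H2-DMa and 1.44, 3.82 and -1.16 for H2-DMb1. Without plate 2 they were -0.31 and 0.91, so for H2-DMa the direction rested on plate 2. For Cd74 the plates gave -0.45, 4.28 and -2.63, and the difference without plate 2 was -1.06, so its direction rested on plate 2 too. The median of the 7 was 0.14, beside 0.05 over all genes without a filter and 0.22 over filtered genes. Without wells with neutrophil or rod markers the differences of H2-DMa and H2-DMb1 were 0.51 and 1.35.

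Shallow wells could not be read on the same scale. A single read of Cd74 was worth a median of 287 FPKM in a shallow well and 0.909 FPKM in a deep one. Over all wells at FPKM 1 or more, Cd74 was in 14 of 54 uncrushed, 8 of 36 day 2 and 18 of 54 day 4 wells, and H2-DMa in 25, 16 and 27. H2-Eb1 was in 1, 0 and 3 wells by that rule, and the 3 day 4 wells were shallow wells of plate 3 with at most 1 read. Plate 1 had no chain gene read in its 14 shallow wells, plate 2 had them in 1 of 17 and plate 3 in 5 of 25. No shallow well had more than 1 read of a chain gene. On plate 3, 4 of the 5 were day 4 wells, as were 16 of all 25 shallow wells of that plate. Plate 3 was also the plate of the well with all 4 genes. Whether reads passed between wells of a plate was not tested. In mean log2(FPKM + 1) over all wells, 0 of the 7 genes were called for day 4 against uncrushed, where 9.40% of genes were called higher and 1.78% lower. The same held for day 2 against uncrushed, with 0 of the 7 beside 7.99% higher and 0.865% lower. For day 4 against day 2 over all wells, 2 of the 7 were called higher, H2-DMb1 at 1.32 and Cd74 at 1.22, beside 3.63% of genes higher and 2.29% lower. For Cd74 the plates gave -0.69, 3.25 and 1.11 in that comparison.

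Other genes of peptide loading ranged from H2-Ea, held by 0 wells, to Ctss, held by 39 of 39 uncrushed, 24 of 25 day 2 and 23 of 24 day 4 deep wells. Of 23 listed genes of loading and class II regulation, 17 passed the filter, 14 were above 0 and 10 were at least 1 higher in day 4 than in uncrushed deep wells, with a median of 1.08. Among all genes tested 82.3% were above 0 and 26.5% at least 1 higher, with a median of 0.50. The share above 0 was that of the background, and the share at least 1 higher was above it. The 10 genes at least 1 higher were H2-DMb2, the near-identical copy of H2-DMb1, and general genes of the endosome and lysosome. Their count is therefore not a measure of class II loading alone. Cd63 and Cd68, proteins of late endosomes and lysosomes, differed by 2.72 and 2.40. Ctsh, a lysosomal protease, differed by 1.96. Ctss, the protease that trims the invariant chain, differed by -1.03. H2-Ob was held by 7 uncrushed, 0 day 2 and 3 day 4 wells, and Ifi30, the thiol reductase of the endosome, by 7, 12 and 11. At day 2 the same list had 11 of 17 genes above 0, 4 at least 1 higher and a median of 0.41, where 70.5% of all genes tested were above 0 and 13.8% at least 1 higher, with a median of 0.26.

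Genes listed for class II transcription were unevenly held. Rfx5 was held by 0 uncrushed, 1 day 2 and 1 day 4 wells, and Crebbp by 8, 4 and 7. Of 15 listed genes of class II transcription 10 passed the filter, 8 were above 0 and 1 was at least 1 higher at day 4, with a median of 0.36. Beside the 82.3% and 26.5% of all genes, neither count exceeded the background. That gene was Hdac2, a histone deacetylase, at 1.92. Ezh2, a histone methyltransferase, differed by 0.69, Rfxap, a subunit of the RFX complex, by 0.50 and Nfyb, a subunit of NF-Y, by 0.41. The well with all 4 class II genes had 0 reads of Rfx5, Rfxap and Rfxank. These were held by only 2, 5 and 3 of the other 87 deep wells, so a 0 was usual. Of the same list, Ep300 had 289 reads in that well, Zxdc 183, Crebbp 149 and Nfyc 111.

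Of 20 listed genes of interferon gamma signalling 16 passed the filter, 14 were above 0 and 4 were at least 1 higher at day 4, with a median of 0.58. These shares were near those of all genes, 82.3% and 26.5%. The 4 were Ifngr2, a chain of the receptor, at 2.35, Jak1, the kinase bound to the receptor, at 1.81, Cxcl10, a chemokine, at 1.36, and Socs3, a feedback inhibitor, at 1.18. Ifngr2 was held by 5 uncrushed, 9 day 2 and 13 day 4 wells. Ifng itself had 0 reads in every deep well.

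Co-stimulatory genes provide the additional signal that T cells need. Of 10 listed genes 6 passed the filter, all 6 were above 0 and 3 were at least 1 higher at day 4, with a median of 0.99, where all genes gave 82.3%, 26.5% and a median of 0.50. These were Icam1, an adhesion ligand, at 2.62, Cd86, a ligand of CD28, at 2.15, and Cd83 at 1.22. Icam1 was held by 3 uncrushed, 3 day 2 and 13 day 4 wells and Cd86 by 5, 5 and 11. Cd274, an inhibitory ligand, differed by 0.76. Cd80 was held by 0, 6 and 4 wells.

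The genes most like the summed level of H2-Aa, H2-Ab1, H2-Eb1 and Cd74 were mostly only weakly like it. Over the 88 deep wells and 5270 genes the highest Spearman correlation was that of Mir5107, at 0.75, a microRNA gene that lies inside Cd74 on the same strand (chromosome 18, 60812076 to 60812163), so the pair can share reads. The next were Gm5913 at 0.45, Hibadh and Psmd14 at 0.43, and Gm15344, Ndufaf7, Mta2 and Stip1 at 0.42. H2-DMb1 stood at 0.30 and H2-DMa at 0.21, and the median gene at 0.12. The number of genes in a well itself had a correlation of 0.31 with the class II sum, which was above 0 in 41 wells. Values this low in sparse counts are no finding.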

How the data were processed

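RNA of 144 single sorted cells was sequenced, 48 wells on each of 3 plates. The values are the authors' deposited FPKM per gene, in 1 table. Per the submitters' processing notes, Trim Galore 0.4.4, cutadapt 1.16, Trimmomatic 0.36, STAR 2.7.2b and featureCounts 1.6.1 were used with GRCm38.p6 (mm10); their settings are not given in the sources used here. FPKM times gene length in kilobases summed to 1000000 per well, so reads were recovered by taking the commonest value above 0 in a well as 1 read. Of recovered values under 100, 40.9% were whole within 0.01; the others are fractions of reads, so reads are estimates and no count model was used.

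Wells were grouped by title. Levels are log2(FPKM + 1), and a difference of at least 1 was a call; a gene entered when 5% or more of the wells compared had it at FPKM 1. No test was run, since each group counts as 1 sample. The lists of pathway and marker genes and the rule for named genes (the 7 genes, up to 4 genes per list with the largest day 4 difference, the 8 most correlated genes) were written down, but the genes and lists were chosen with earlier results of these data known. Genes outside that rule (H2-Ob, H2-Oa, H2-Ea, Rfx5, Rfxank, Ep300, Zxdc, Crebbp, Nfyc, Ms4a7, Pf4, Wdfy4, Ighm, Cd79a, Igkc, Mrc1, Cd163, Lyve1, Apoe, Slc1a3, Glul, Ctss, Ifng, Cd80, H2-DMb2) were named after their values were seen, as were the 20 and 40 point thresholds. The scripts (Python 3.11.15, pandas 2.3.3, scipy 1.17.1) were tested on simulated data.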

Additional observations from a re-analysis of the deposited data

How the results depend on the processing

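No paired analysis was possible because no well is tied to an animal and no test was made. A well with all of H2-Aa, H2-Ab1, H2-Eb1 and Cd74 was found in 1 case, and in 0 without plate 3 or without the well at row C, column 4 of that plate (this last alternative was chosen after seeing the data). The share of uncrushed deep wells with at least 1 of the 4 was 15.4% at 10 reads and 33.3% at FPKM 1 or more; the other groups went from 28% to 40% (day 2) and from 37.5% to 45.8% (day 4). Of the 8 most correlated genes, Pearson correlation kept 2, the uncrushed, day 2 and day 4 wells alone kept 1 each, and leaving out that well kept 4. The day 4 minus day 2 difference of H2-DMa, 1.58, turned to -0.31 without plate 2. Leaving out each deep well in turn, the median of the 7 genes ranged from -0.26 to 0 for day 2 minus uncrushed, from 0 to 0.39 for day 4 minus uncrushed and from 0 to 0.48 for day 4 minus day 2. Of the other values, for single genes and for the median of all genes, 418 were counted as unmoved and 16 as moved. The yardstick was the SD over the 3 plates for differences and the counting interval for shares. That SD was wide, at 2.87 for Cd74 in day 4 minus uncrushed. Some changes of sign therefore count as unmoved, such as Cd74 there, from 0.94 to -0.69 without plate 2. The count does not show that the values were stable. Of the 16, 3 were the medians of all genes, which were set down as moved with no spread computed for them. Without the filter on low values they fell from 0.26 to 0.04, from 0.50 to 0.12 and from 0.22 to 0.05. Depth limits the 56 shallow wells to a few reads of any of these genes.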
